A study of Arabidopsis thaliana with 64 samples.

Results

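Cytochrome P450, beta-glucosidase (BGLU) and tau-class glutathione S-transferase (GSTU) genes were followed in Arabidopsis thaliana roots given every combination of 5 signals. Members were all probe sets annotated to 1 gene whose symbol or synonym was CYP, BGLU or GSTU with a number. The rule matched 62 probe sets of 61 genes, of 22746 probe sets tested. They comprised 24 cytochrome P450 genes, 22 BGLU genes and 11 GSTU genes, each read by 1 probe set, together with 4 cyclophilins (CYP40, CYP57, CYP59 and CYP71) that share only the CYP abbreviation. The cyclophilins were kept apart, and 0 of the 4 passed for any signal in the limma test described below. The gene table names 241, 47 and 29 genes of the 3 families, and probe sets of the others carry no single-gene annotation here. Most of the named cytochrome P450 genes belong to the CYP71B subfamily.

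The roots came from plants grown hydroponically with ammonium succinate and then kept for 24 h without nitrogen, a history that all groups share. They were harvested 4 h after transfer to media with nitrate, ammonium, the auxin IAA, the cytokinin kinetin or abscisic acid (ABA), in all 32 combinations including none. Nitrate and ammonium were supplied at 1 mM, or at 0.5 mM each where both were present. IAA and kinetin were supplied at 500 nM and ABA at 1 µM, and the mock controls received KCl and DMSO. Each of the 32 groups had 2 arrays, and the labels do not say whether these came from separate cultures. The p-values therefore measure only the spread between these arrays, which may be technical. The labels name roots as the tissue. Of 15 root markers 3 had a named probe set. EXPA7 and EXPA18, expansins of root hair cells, had median intensities of 613 and 690, and BGLU23, itself a member, had 5220. Of 11 green tissue markers 3 had a named probe set, with medians of 348 for RCA, 155 for LHCB4.1 and 131 for PORB.

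Cytochrome P450 enzymes are membrane-bound haem monooxygenases that oxidise hormones, sterols, phenolics and defence compounds. Beta-glucosidases split glucose from stored conjugates, which releases defence compounds, lignin precursors or active hormones from their inactive glucosides. In roots, the beta-glucosidase PYK10 (BGLU23) fills the endoplasmic reticulum bodies, which keep the enzyme apart from its substrates. Tau-class glutathione transferases are plant enzymes that couple glutathione to reactive or foreign molecules or bind such ligands. All 3 families are large, and many members lie beside close relatives on a chromosome.

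Values are intensities of the array scanner on a linear scale. Differences are log2 differences of intensity + 1, with minus without a signal, given ± SE. Each is the mean over 16 combinations of the remaining signals, so that 32 arrays stand on each side. A difference passed at an adjusted p under 0.05 in limma, with the adjustment over all 22746 probe sets. Members differed widely in level. Over the 64 arrays the mean log2 intensity ranged from 3.16 for BGLU43 to 12.27 for BGLU23. The mean of 22 of the 57 members lay below the lowest array median of 6.70, among them 12 cytochrome P450, 9 BGLU and 1 GSTU genes. Of these 22 dim members 4 passed for at least 1 signal, against 17 of the 35 brighter ones. In the median member 44.1% of the variation lay between duplicate arrays of a group. In all, 36 members passed for none of the 5 signals, 17 for 1, 3 for 2 and 1 for 3. The matching counts over all probe sets, dim or bright, are not given here. The counts by level and by number of signals therefore only describe the members.

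**Figure D1:**
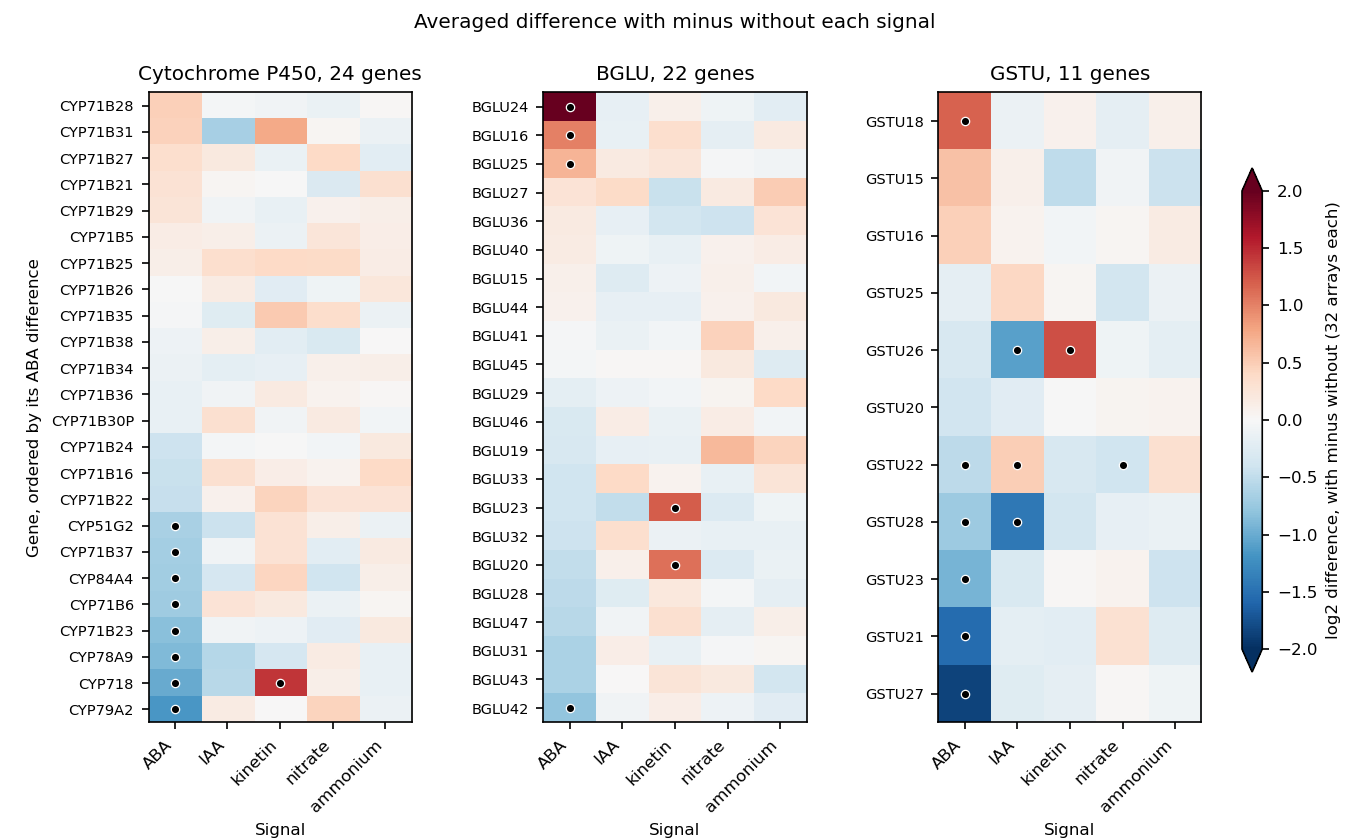
Log2 difference with minus without each of the 5 signals (columns) for every member (rows) of the 3 families, 32 arrays on each side, with black dots on differences that passed. Colours saturate at 2, so BGLU24, at 4.47 with ABA, is off the scale. Most dots lie in the ABA column, and the GSTU panel is the one with dots under 4 of the 5 signals.

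ABA moved 18 of the 57 members, where 27.3% of all probe sets passed in either direction. Of the 22746 probe sets 8.48% passed as higher and 18.8% as lower. In bulk root RNA, fewer cells that express a gene and less RNA per cell cannot be told apart. Among the cytochrome P450 genes 0 rose and 8 of 24 fell, and in limma 9 of 24 had an unadjusted p under 0.05. Over the whole array 8616 of 22746 probe sets had such an unadjusted p. Among the BGLU genes 3 of 22 rose and 1 fell. Among the GSTU genes 1 of 11 rose and 5 fell. The median difference was -0.15 for the cytochrome P450 genes, -0.25 for the BGLU genes and -0.38 for the GSTU genes, beside -0.19 for all probe sets. Relative to that last value, 13 of 24 cytochrome P450, 10 of 22 BGLU and 4 of 11 GSTU genes lay above it. The direction of the first 2 medians depended on scaling. With quantile normalization the median of all probe sets moved to -0.05, and the family medians were 0.04 for cytochrome P450, -0.06 for BGLU and -0.22 for GSTU genes. The calls were then 2 up and 7 down, 3 up and 1 down, and 3 up and 5 down in the same order. With the array median as a covariate the medians were 0.12, 0.08 and -0.57, and the calls 2 up and 5 down, 5 up and 2 down, and 2 up and 7 down. The cytochrome P450 genes that rose were CYP71B28 and CYP71B29 after quantile normalization and CYP71B29 and CYP71B31 with the covariate. Arrays with ABA had lower medians, 7.42 ± 0.31 against 7.60 ± 0.30 (log2, SD, n = 32 each), a difference of -0.18 (permutation test, two-sided p = 0.0226, adjusted p = 0.169 over 15 tests).

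BGLU24 (AT5G28510) gave the largest response of any member. With ABA its intensity ran from 328 to 2918 with a median of 756, and without ABA from 6.86 to 315 with a median of 37.1. All 32 arrays with ABA were above all 32 without it, so the groups did not overlap. The difference was 4.47 ± 0.29, or 22.2-fold (limma, adjusted p = 3.13e-15), and it was positive in 16 of 16 combinations, from 2.04 to 6.00. Without ABA the median of BGLU24 lay below the dimmest array median of 103, so the fold rests on values near the low end of the scale and was smaller, at 3.00 on the log2 scale, with a pseudocount of 64. BGLU16 (AT3G60130) had 351 to 1369.5 with ABA, median 835, and 239 to 677 without, median 424. Of the 32 arrays with ABA 25 exceeded every array without it. The difference was 1.02 ± 0.10 (limma, adjusted p = 3.27e-10), positive in 16 of 16 combinations. BGLU25 (AT3G03640) had 190.3 to 871 with ABA, median 566, and 119 to 644 without, median 348. The groups overlapped over most of their range, with 12 arrays with ABA above all others, and the difference was 0.69 ± 0.14 (limma, adjusted p = 0.000216). Without the arrays numbered replicate 1 it was 0.45 and did not pass. Here and below, fits without a replicate number used 32 arrays, 1 per group, and only main effects and pairwise interactions. A call lost in them is thus not like for like with the main fit.

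**Figure D2:**
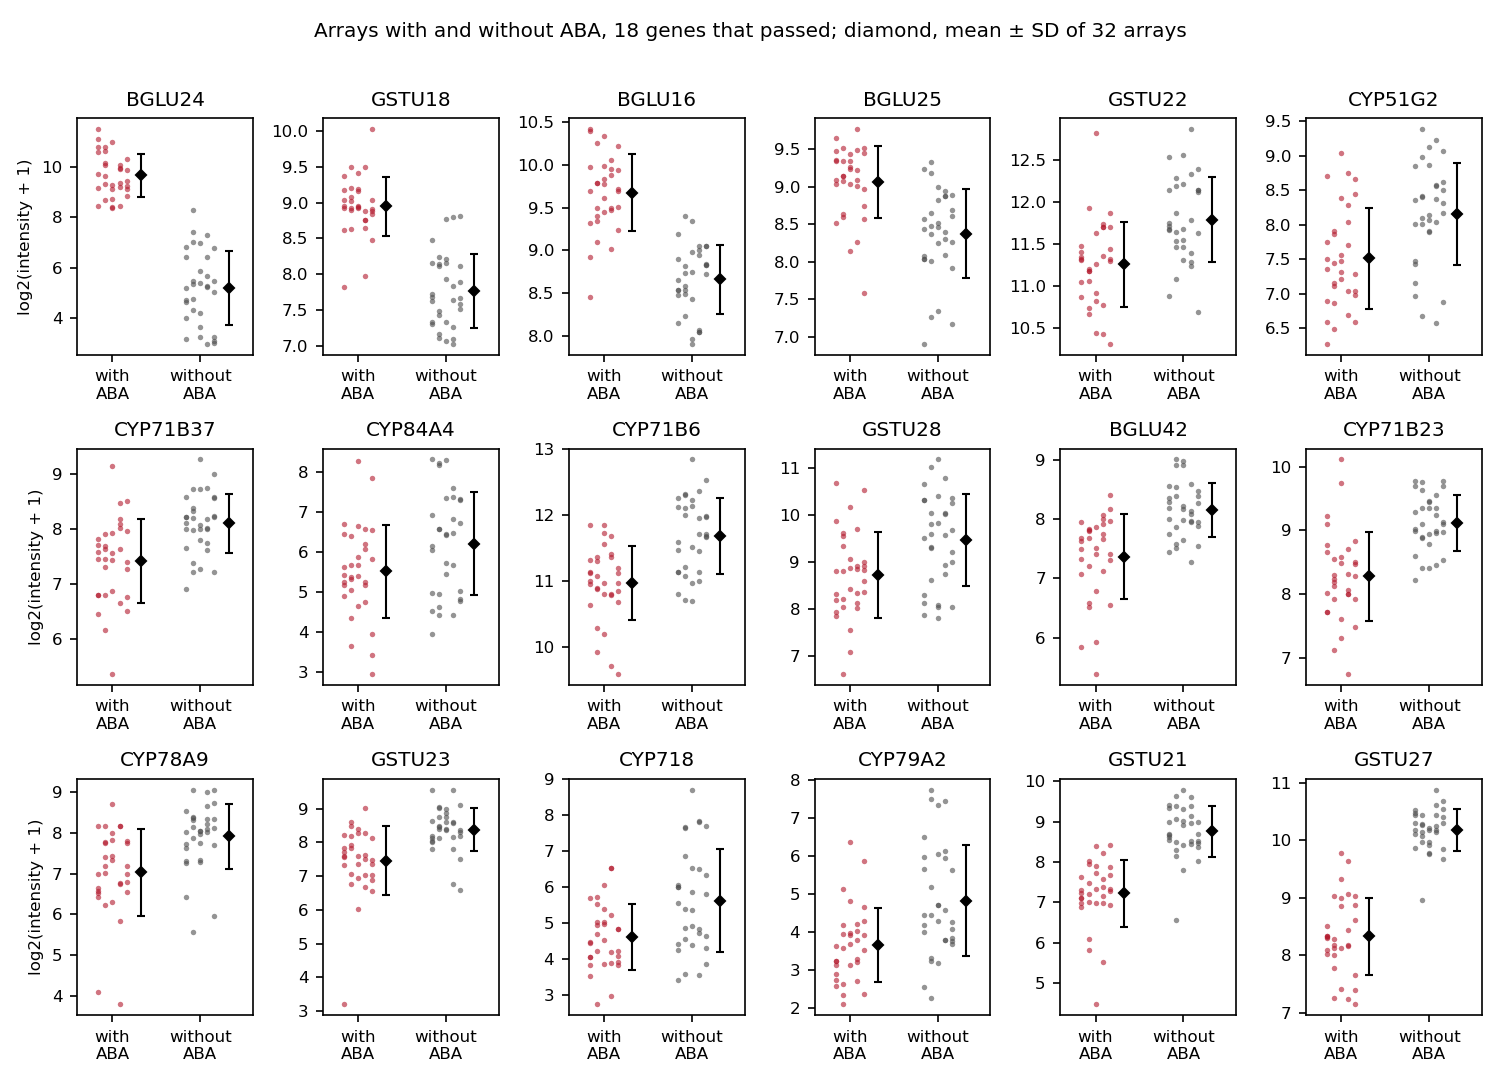
Each array's log2(intensity + 1) with ABA (left) and without ABA (right) for the 18 members that passed, ordered from the largest increase to the largest decrease, with a diamond and bar for the mean ± SD of 32 arrays. BGLU24 is the panel in which the 2 sets of arrays do not touch, and CYP84A4 is one in which they overlap almost fully.

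BGLU42 (AT5G36890), a beta-glucosidase known from iron deficiency and from induced systemic resistance to pathogens, was the 1 BGLU gene that fell. It had 40.9 to 339.6 with ABA, median 189.6, and 155 to 513 without, median 283. Most arrays with ABA, 30 of 32, lay below the median of those without. The difference was -0.78 ± 0.16 (limma, adjusted p = 0.000315). It was -1.19 without replicate 1 and -0.38 without replicate 2, where it did not pass (adjusted p = 0.177).

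In the GSTU family GSTU18 (AT1G10360) rose and 5 genes fell. GSTU18 had intensities of 226 to 1041 with ABA, median 489, and 129.5 to 447 without, median 203. All 32 arrays with ABA exceeded the median without it, and 24 exceeded its highest array. The difference was 1.18 ± 0.13 (limma, adjusted p = 1.47e-09). GSTU27 (AT3G43800) moved the other way, with 141 to 879 with ABA, median 313, and 499 to 1888 without, median 1177. Of the arrays with ABA 25 lay below every array without it. The difference was -1.85 ± 0.13, or 3.62-fold lower (limma, adjusted p = 2.58e-14), and negative in 16 of 16 combinations, from -3.15 to -1.07.

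GSTU21 (AT1G78360) had 21.3 to 340.4 with ABA, median 156, and 93.2 to 885 without, median 412. All 32 arrays with ABA lay below the median without it, although the ranges overlapped, and the difference was -1.54 ± 0.19 (limma, adjusted p = 2.85e-08). GSTU23, GSTU28 and GSTU22 fell by 0.93, 0.73 and 0.53 on the log2 scale, with adjusted p from limma of 0.000932, 0.000406 and 0.000104. Their ranges with and without ABA overlapped, and 3, 3 and 4 arrays with ABA lay below every array without it. For GSTU28 the difference was -1.12 without replicate 1 and -0.35 without replicate 2, where it did not pass (adjusted p = 0.286).

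**Figure D3:**
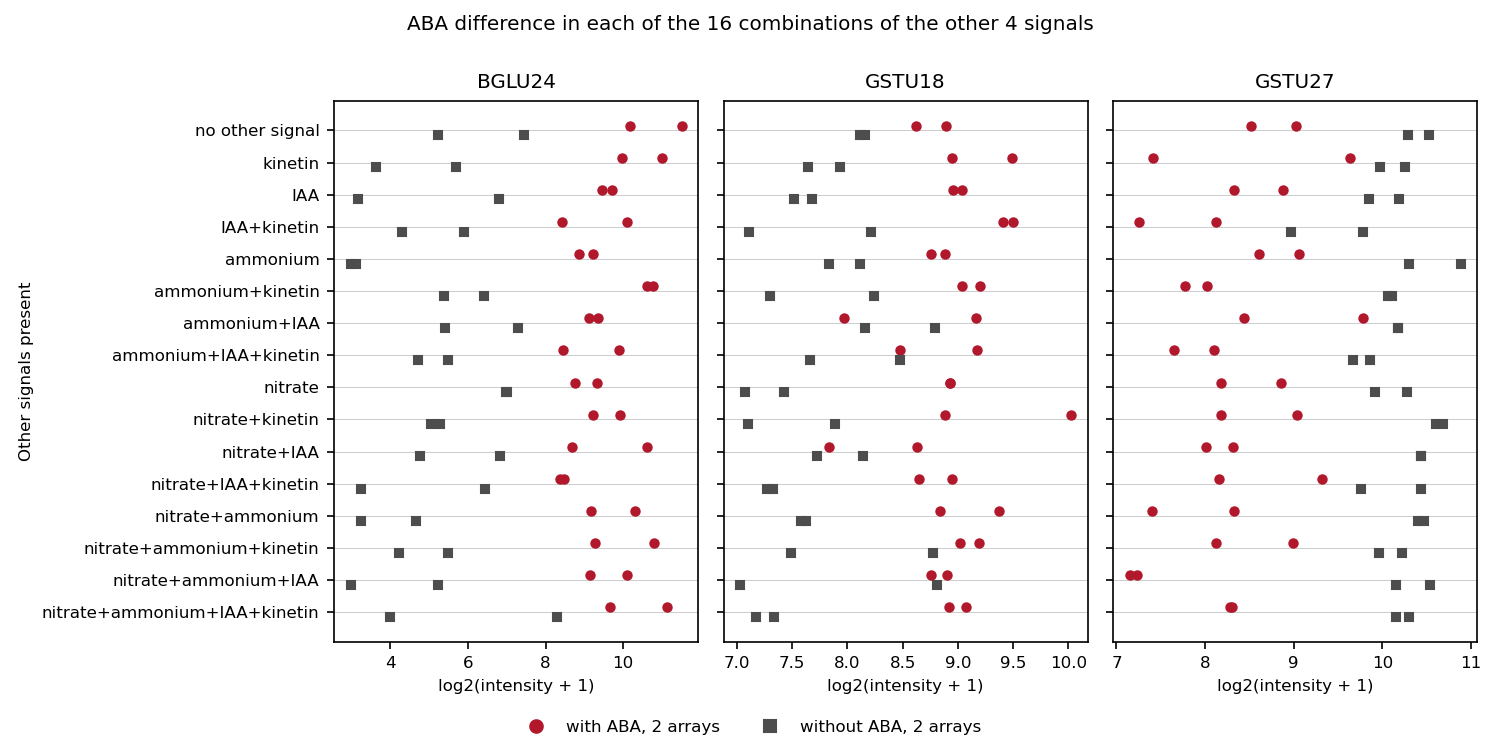
Log2(intensity + 1) of BGLU24, GSTU18 and GSTU27 on both arrays of every group, with ABA (red circles) and without (grey squares), for the 16 combinations of the other signals. In BGLU24 the red points are to the right in every combination and in GSTU27 to the left, while single arrays of GSTU18 overlap in some combinations.

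Of the 8 cytochrome P450 genes that fell with ABA, CYP71B6 (AT2G24180) was the brightest member of its family. It turns indole-3-acetonitrile into indole carboxylic acid derivatives. It had 768 to 3688 with ABA, median 2025, and 1664.5 to 7344 without, median 3317. The ranges overlapped, but 29 of 32 arrays with ABA lay below the median without it, and the difference was -0.71 ± 0.16 (limma, adjusted p = 0.000638). CYP71B23 (AT3G26210) had 106 to 1106.5 with ABA, median 305, and 298 to 876 without, median 548. It was lower in 16 of 16 combinations, and 15 arrays with ABA lay below every array without it, although 1 exceeded all of them. The difference was -0.84 ± 0.14 (limma, adjusted p = 1.59e-05).

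CYP79A2 (AT5G05260), which starts benzylglucosinolate synthesis from phenylalanine, was among the dim members. It had 3.26 to 81.2 with ABA, median 11.1, and 3.74 to 215 without, median 20.8. The 2 ranges overlapped almost completely, and the difference of -1.16 ± 0.33 (limma, adjusted p = 0.00666) came from intensities near the bottom of the scale. CYP78A9 (AT3G61880), known for its role in fruit and seed growth, fell by 0.88 (adjusted p = 0.00234). CYP718, CYP71B37 and CYP51G2, a paralog of the sterol demethylase gene, fell by 1.00, 0.68 and 0.65. Of these CYP718 was a dim member, with a median intensity of 27.6 over all arrays. Its smallest ABA difference among the alternative settings was -0.46. Without replicate 2, CYP79A2, CYP71B37 and CYP51G2 did not pass, with adjusted p of 0.0509, 0.0757 and 0.078. In the fit with the median covariate CYP79A2 stood at -0.72 and CYP51G2 at -0.36, and neither passed (adjusted p = 0.0552 and 0.052). CYP84A4, which acts in the synthesis of the alpha-pyrones called arabidopyrones, had a difference of -0.69 ± 0.26 (adjusted p = 0.0409). It was lower in 10 of 16 combinations, and leaving out any 1 of 30 arrays ended that call, with differences from -0.79 to -0.60 over all 64 removals.

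Marker levels moved with ABA as well. The summed intensity of EXPA7 and EXPA18 had a median of 1102 with ABA, in a range of 340.2 to 2295.5, against 1595 without ABA, in a range of 846 to 2407. The 3 green tissue markers summed to a median of 677 with ABA, from 199 to 1594, and of 642 without, from 257 to 1360. EXPA7 and EXPA18 fell by 0.51 and 0.47 on the log2 scale and LHCB4.1 rose by 0.84 (limma, adjusted p = 0.000724, 0.00735 and 0.00906). The other green tissue markers, RCA and PORB, differed by -0.05 and -0.34 and did not pass (limma, adjusted p = 0.859 and 0.375). The part of these shifts in the results was not tested.

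ABA alone, set against mock with 2 arrays each, changed 2 of 57 members, both BGLU genes that rose, where 1.22% of all probe sets passed and 0.897% passed as higher. BGLU25 read 650 and 730 with ABA and 119 and 153 in mock. The arrays did not overlap, and the difference was 2.34 ± 0.56 (limma, adjusted p = 0.0198). In the averaged effect it was 0.69, and single treatments with kinetin, IAA, nitrate or ammonium also read between 303 and 490 on this gene, none of which passed. BGLU24 read 1162 and 2918 with ABA and 36.1 and 172 in mock, a difference of 4.52 ± 1.15 (limma, adjusted p = 0.0361). Both calls depended on single arrays. For BGLU25 the adjusted p became 0.146 and 0.178 without ABA replicates 1 and 2, and 0.177 and 0.102 without mock replicates 1 and 2. For BGLU24 it became 0.433 and 0.0874 without ABA replicates 1 and 2, and 0.358 without mock replicate 1, while it stayed at 0.0456 without mock replicate 2. These fits take the spread of the lone array from the other groups. For kinetin, IAA, nitrate and ammonium alone 0 members passed in limma, with 5, 3, 4 and 3 of 57 at an unadjusted p under 0.05. Of all 22746 probe sets 680, 891, 1618 and 688 had such an unadjusted p, in the same order. The share of all probe sets that passed was 0.0176%, 0.044%, 0.0835% and 0.00879% in the same order.

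IAA changed 3 of 57 members, all of the GSTU family, where 2.65% of all probe sets passed, 1.27% as higher and 1.38% as lower. GSTU28 (AT1G53680) had 97.7 to 764 with IAA, median 305, and 319.9 to 2312 without, median 919.6. All 32 arrays with IAA lay below the median without it, and 17 lay below its lowest array. The difference was -1.43 ± 0.16, or 2.70-fold lower (limma, adjusted p = 2.85e-08), and negative in 16 of 16 combinations. GSTU26 (AT1G17190) had 171 to 2517 with IAA, median 388, and 141 to 3619.6 without, median 1071.5. The ranges overlapped, yet 29 of 32 arrays with IAA lay below the median without it, and the difference was -1.09 ± 0.23 (limma, adjusted p = 0.00263), negative in 16 of 16 combinations. GSTU22 (AT1G78340) rose by 0.50 ± 0.10 (limma, adjusted p = 0.00186), with a median of 3375 with IAA and 2542 without, and was higher in 15 of 16 combinations. Without replicate 1 it stood at 0.41 and did not pass (adjusted p = 0.312), which left 2 of the 3 calls.

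Of the cytochrome P450 genes 0 of 24 passed with IAA, and of the BGLU genes 0 of 22. In limma 4 and 2 of them had an unadjusted p under 0.05, beside 2818 of all 22746 probe sets. The ratio of the 3' to the 5' actin probe sets, a measure of RNA integrity and labelling, was higher with IAA, at 4.65 ± 0.38 against 4.29 ± 0.46 without (log2, SD, n = 32 each; permutation test, two-sided, adjusted p = 0.0126 over 15 tests). With that ratio as a covariate GSTU28, GSTU26 and GSTU22 differed by -1.48, -1.14 and 0.60 (limma, adjusted p = 1.92e-06, 0.02 and 0.00232). The same ratio for GAPDH was 8.44 ± 1.75 with IAA and 8.61 ± 1.25 without (log2, SD, n = 32 each). Mean 3' signals were thus far above 5' signals with and without IAA. What this means for the other probe sets was not tested. A root marker moved with IAA too: EXPA18 fell by 0.68 on the log2 scale (limma, adjusted p = 0.00126), while EXPA7 differed by -0.24 and did not pass. The summed intensity of both had a median of 1089 with IAA, from 340.2 to 2407, against 1589 without, from 791 to 2389.8. The 3 green tissue markers summed to medians of 675 with IAA, from 257 to 1594, and 637.9 without, from 199 to 1104. The part of these shifts in the 3 GSTU results was not tested.

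Kinetin changed 4 of 57 members, all of which rose, where 2.07% of all probe sets passed and 1.31% passed as higher. They were 1 cytochrome P450, 2 BGLU and 1 GSTU gene. BGLU23 (AT3G09260), which encodes PYK10 and was the brightest member of all, had 1831 to 16238 with kinetin, median 8374.5, and 338 to 7462 without, median 3271.5. Of the arrays with kinetin 19 exceeded every array without it. The difference was 1.20 ± 0.23, or 2.30-fold (limma, adjusted p = 0.00102), and positive in 15 of 16 combinations. Without replicate 1 it was 1.02 and did not pass in that smaller fit of 1 array per group. GSTU26 had 381 to 3619.6 with kinetin, median 1002, and 141 to 1815 without, median 369.8. All 32 arrays with kinetin exceeded the median without it, and the difference was 1.30 ± 0.23 (limma, adjusted p = 0.000265), positive in 16 of 16 combinations. The summed root markers EXPA7 and EXPA18 had a median of 1487.5 with kinetin, from 508 to 2407, and 1188.5 without, from 340.2 to 2163. They differed by 0.27 and 0.11 on the log2 scale, and neither passed. The 3 green tissue markers summed to medians of 612 with kinetin and 683 without. The part of these shifts in the kinetin results was not tested.

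CYP718 (AT2G42850), a cytochrome P450 gene, had 5.64 to 417 with kinetin, median 55.9, and 6.77 to 79.1 without, median 19.97. Both ranges began near the bottom of the scale, but 11 arrays with kinetin exceeded every array without it, and the difference was 1.43 ± 0.21 (limma, adjusted p = 1.05e-05). Its smallest value among the alternative settings was 0.63. BGLU20 (AT1G75940), also known as ATA27 and first described in the anther tapetum, had medians of 72.5 with kinetin and 32.2 without. Its highest array, at 348, was one without kinetin, and the level was 2.15-fold higher with kinetin, with an SE of 0.26 on the log2 scale (limma, adjusted p = 0.0123). BGLU20 was a dim member, and with a pseudocount of 64 the log2 difference was 0.43 and did not pass (adjusted p = 0.0758). It did not pass without either replicate number (adjusted p = 0.295 and 0.222). Single arrays added calls. BGLU16 passed as the third BGLU gene without any 1 of 5 arrays, namely replicate 1 of nitrate+kinetin or replicate 2 of nitrate+IAA+ABA, nitrate+IAA+kinetin+ABA, nitrate+ammonium+IAA or nitrate+ammonium+IAA+ABA, and it stood at 0.34 (adjusted p = 0.0763) over all arrays. Without ammonium+kinetin replicate 1, CYP71B31 passed at 0.89, for 2 cytochrome P450 genes in all, and it stood at 0.76 (adjusted p = 0.209) over all arrays. Without IAA+kinetin+ABA replicate 1 or ammonium+IAA+ABA replicate 2, GSTU22 passed at -0.37 or -0.36, for 2 GSTU genes, and it stood at -0.32 (adjusted p = 0.109) over all arrays.

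GSTU26 was the 1 member called for both IAA and kinetin, in opposite directions. Its median was 575 with both hormones, 321 with IAA, 1859 with kinetin and 544 with neither, over 16 arrays each. The levels with both and with neither were thus close together, between the lower level with IAA and the higher one with kinetin. GSTU28, called for IAA and ABA but not for kinetin, had medians of 279 with both, 356 with IAA, 898 with kinetin and 1160 with neither. For CYP718 the medians were 40.1, 25.4, 89.7 and 19.2 in the same order. The kinetin difference of CYP718 was also set against ABA: the median was 29.6 with kinetin and ABA, 90.1 with kinetin, 17.5 with ABA and 21.4 with neither. The interaction was -1.57 ± 0.42 and did not pass (limma, adjusted p = 0.395). CYP718 was picked for this comparison after its values were seen.

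**Figure D4:**
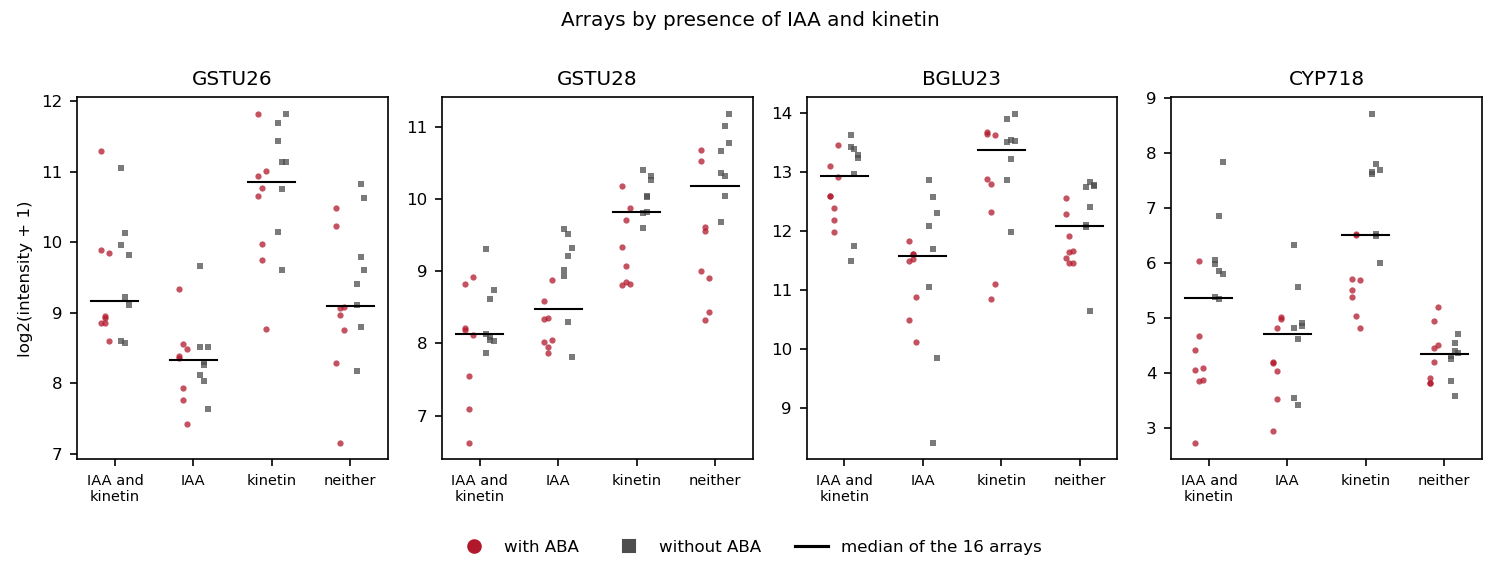
Log2(intensity + 1) of GSTU26, GSTU28, BGLU23 and CYP718 on 64 arrays split by the presence of IAA and kinetin, with arrays with ABA as red circles, arrays without as grey squares and a line at the median of the 16 arrays. GSTU26 and BGLU23 are highest in the class with kinetin and lowest in the class with IAA, GSTU28 is low in both classes with IAA, and CYP718 is highest with kinetin in the absence of ABA.

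In the 10 pairwise interactions 0 of 57 members passed in limma. The number with an unadjusted p under 0.05 was 12 for nitrate with kinetin, 6 for IAA with kinetin, 4 for nitrate with ammonium and for IAA with ABA, 3 for nitrate with ABA, ammonium with kinetin and kinetin with ABA, 2 for ammonium with ABA, 1 for nitrate with IAA and 0 for ammonium with IAA. Of all probe sets 0.0396% passed for IAA with ABA and 0.0132% for nitrate with ammonium. It was 0.00879% for IAA with kinetin and for kinetin with ABA, and 0.0% for the other 6 pairs. Of all 22746 probe sets 3141, 1593, 1596 and 1281 had an unadjusted p under 0.05 for the first 4 pairs listed. For nitrate with ABA, ammonium with kinetin and kinetin with ABA it was 925, 828 and 999. For ammonium with ABA, nitrate with IAA and ammonium with IAA it was 697, 662 and 815. The median nitrate with kinetin interaction of all probe sets was 0.24, and 0.01 after quantile normalization. In the simulated data 10% of IAA with ABA interactions of 1 on the log2 scale were recovered, and 48% of those of 2. The count of 0 of 57 therefore does not show that interactions were absent.

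Nitrate changed 1 of 57 members, GSTU22, which fell, where 0.884% of all probe sets passed and 0.339% passed as lower, and ammonium changed 0, where 0.506% passed. In limma 3 members for nitrate and 2 for ammonium had an unadjusted p under 0.05, beside 1905 and 2147 of all 22746 probe sets. In 8 of 16 combinations the second ion stood at 0.5 mM with the ion in question and at 1 mM without it, a change that the averaged effects include. GSTU22 was the brightest GSTU gene and the 1 member called for 3 signals. Its intensity ran from 1269.9 to 5361 with nitrate, median 2547, and from 1385 to 7439 without, median 3315. The ranges overlapped, and 26 of 32 arrays with nitrate lay below the median without it. The difference was -0.40 ± 0.10 (limma, adjusted p = 0.0452), negative in 15 of 16 combinations. Leaving out any 1 of 45 arrays ended the call, with differences from -0.44 to -0.35 over all 64 removals and adjusted p up to 0.082. With ammonium GSTU22 differed by 0.32 and did not pass.

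Where nitrate was the sole nitrogen source, GSTU22 read from 1269.9 to 3715 with a median of 2386, and where ammonium was, from 1871 to 7439 with a median of 3321, over 16 arrays each. The ranges overlapped. The difference, nitrate minus ammonium, was -0.72 ± 0.14 (limma, adjusted p = 0.00662), and GSTU22 was the 1 of 57 members that passed, where 0.391% of all probe sets did and 0.149% were lower with nitrate. The median was 2969.5 with both ions and 3015 with no nitrogen. After quantile normalization the adjusted p was 0.0508. The lowest group mean of GSTU22 was with nitrate, kinetin and ABA, at 1269.9 and 1379.5, and the highest with ammonium and IAA, at 6022 and 7439.

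**Figure D5:**
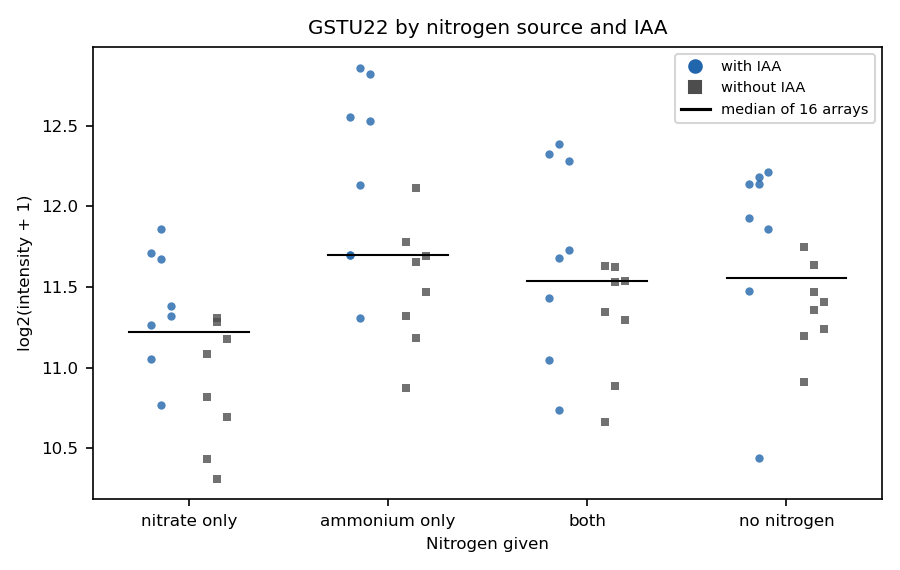
Log2(intensity + 1) of GSTU22 by nitrogen source, with IAA (blue circles) and without IAA (grey squares), and a line at the median of the 16 arrays of each source. The line is lowest with nitrate as the sole source and highest with ammonium as the sole source, and within each source most of the highest arrays are those with IAA.

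Members were also grouped by known role. Of 107 role entries in 29 lists, 13 genes of 12 lists had a named probe set. CYP71B6, CYP79A2, CYP78A9 and BGLU42 fell with ABA and BGLU23 rose with kinetin, as above. The other 8 passed for none of the 5 signals. BGLU45 and BGLU46, which release monolignols for lignin from their glucosides, had differences of -0.25 with ammonium and -0.30 with ABA, the largest in size for each. BGLU33 (BG2), which hydrolyses the glucose ester of ABA, differed by -0.39 with ABA (adjusted p = 0.202). BGLU28, known from sulfur deficiency, differed by -0.53 with ABA (adjusted p = 0.0775). It passed, at -0.62 to -0.60, without any 1 of 5 arrays: ABA replicate 2 or replicate 1 of mock, ammonium+ABA, nitrate+ammonium+IAA or nitrate+kinetin+ABA. It was -1.02 without all arrays numbered replicate 1 (adjusted p = 0.032) and -0.037 without those numbered replicate 2 (adjusted p = 0.948). BGLU15, which splits flavonol bisglycosides, differed by -0.26 with IAA (adjusted p = 0.231). BGLU36, placed among the thioglucosidases, differed by -0.41 with nitrate, at intensities with a median of 18.3. GSTU25, which acts on the explosive TNT, differed by 0.42 with IAA (adjusted p = 0.212), and it passed at 0.51 without IAA+kinetin+ABA replicate 2. GSTU20, a binding partner of the jasmonate-conjugating enzyme JAR1, differed by -0.38 with ABA (adjusted p = 0.182).

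Among the members of lowest level or widest range, BGLU43, CYP71B5 and GSTU15 had the lowest means of their families, at 3.16, 3.29 and 5.07 on the log2 scale, and passed for none of the signals. BGLU24, CYP718 and GSTU21 each had the widest range of group means within its own family, at 7.81, 4.45 and 3.96. In BGLU24, GSTU27, GSTU18, BGLU16, GSTU21 and GSTU28 a single signal took most of the variation, from 51.3% for IAA in GSTU28 to 78.0% for ABA in BGLU24. In GSTU22 no signal took more than 22.0%, with 19.6% for IAA, 12.4% for nitrate and 18.9% between duplicate arrays.

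Of the 57 members 17 pairs of the same family were neighbours in the gene table. Their Pearson correlation over the 32 group means ranged from -0.13 to 0.41, with a median of 0.18, beside a median of 0.10 for the other 545 pairs of one family and 0.07 for 1034 pairs of different families. The group means share arrays and array scaling, and the values are a description. GSTU25 and GSTU26 correlated at 0.08: with IAA they differed by 0.42 and -1.09, and with kinetin by 0.04 and 1.30. GSTU23 and GSTU22 correlated at 0.18, and with IAA they differed by -0.30, which did not pass, and by 0.50. BGLU27 and BGLU16 correlated at 0.13, with ABA differences of 0.28, which did not pass, and 1.02. CYP71B22 and CYP71B23 correlated at 0.38, with ABA differences of -0.46, which did not pass, and -0.84. Groups also share signals, ABA among them. The patterns most alike over the 32 groups were those of BGLU24 and GSTU18 (r = 0.83), CYP71B6 and CYP71B23 (r = 0.80) and GSTU21 and GSTU27 (r = 0.79). GSTU27 with CYP71B23 and BGLU23 with GSTU26 came next, both at r = 0.77. The most opposed were BGLU24 and GSTU27 (r = -0.88) and GSTU18 and GSTU27 (r = -0.82).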

How the data were processed

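The authors deposited intensities on a linear scale, 1 value per probe set and array, from 64 Affymetrix arrays of Arabidopsis root RNA labelled with biotin, per the labels' protocols. The program that summarised probes is not given in the sources used here. Each array's mean with 2% of probe sets trimmed at both ends was 499.4 to 499.7, so arrays had been scaled, and array medians ran from 103 to 303. The number of arrays limits the precision. Probe sets were named by the platform annotation, updated with the RefSeq table of TAIR10.1 (13513 with 1 gene, 503 with several and 8794 without an entry, control probe sets included). Sequences and promoters were not analysed here.

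The 64 control probe sets were left out. Log2(intensity + 1) of all other probe sets was fitted with limma 3.58.1 in R 4.3.3 as 32 group means, with Benjamini-Hochberg adjustment in each comparison. Where a replicate number was left out, 1 array per group remained. Those fits held main effects and pairwise interactions in place of group means. A pseudocount shrinks log2 differences at low intensity, and one of 1 does so less than one of 64. Differences of dim members thus depend on that choice. BGLU20 with kinetin, for example, differed by 1.10 with a pseudocount of 1 and by 0.43 with 64. Array measures were compared by permutation with 100000 resamples (scipy 1.17.1). The fit was tested on simulated data.

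Named are, per averaged effect and family, the 6 largest passing differences in each direction and those with a listed role. Members of highest or lowest mean or widest range are named too. CYP71B37 and CYP51G2 complete a count and were added after their values were seen. So were the uncalled genes named from single-array refits or from other settings. The genes behind further BGLU and GSTU gains with ABA in single-array refits are not given. Members and lists were chosen with earlier results of these data known. CYP718, which lacks the subfamily letter, was to be counted apart, but the gene table annotates it as a cytochrome P450. Replicate numbers were not used to pair arrays in the main fit. Deviations of the 496 pairs of groups correlated between -0.26 and 0.42, with a median of 0.05. Of these pairs 164 had a correlation over 0.1, so shared deviations of same-numbered arrays remain possible. The alternatives were quantile normalization, the array median or actin ratio as a covariate, a pseudocount of 64, leaving out the dimmest 40%, a replicate block, array weights, leaving out the 6 arrays of most extreme median, each array or each replicate number, and, added after seeing the data, CYP718 counted apart.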

Additional observations from a re-analysis of the deposited data

Results flagged for a closer look

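Of the 3 probe sets annotated to several genes, at least 1 of them in these families, 2 passed with ABA in limma. One was higher with ABA, by 0.78 on the log2 scale (adjusted p = 0.0308), and another lower, at -1.24 (adjusted p = 0.000508). Of all probe sets 27.3% passed with ABA. Both are signals outside the members. The higher one reads AT1G58265 and CYP79C2 and the lower one CYP71B20 and CYP71B19, so neither value can be given to a single gene. The third did not pass.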

How the results depend on the processing

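Of the calls of single members 26 were for an averaged effect. With ABA the count of cytochrome P450 genes was 5 without the dimmest 40% of probe sets, where fewer were tested, and 4 without replicate 2, against 8. The BGLU count was 7 with the array median as a covariate, against 4, and that covariate also gave 1 BGLU gene for IAA, against 0. For kinetin the cytochrome P450 count of 1 became 0 without the dimmest 40% or with CYP718 counted apart, a setting chosen after seeing the data. The BGLU count of 2 became 0 and 1 without replicates 1 and 2, and with a pseudocount of 64 it stayed at 2 with BGLU16 in place of BGLU20, and the GSTU count of 1 became 2 without the 6 arrays of extreme median. GSTU22 was lost for nitrate and for the nitrogen source after quantile normalization and without either replicate number, each a count of 0. Leaving out 1 array at a time, the counts ran from 1 to 2 for cytochrome P450 and for GSTU genes with kinetin, 2 to 3 for BGLU genes with kinetin, 4 to 6 for BGLU, 6 to 7 for GSTU and 7 to 8 for cytochrome P450 genes with ABA, 3 to 4 for GSTU genes with IAA, 0 to 1 for GSTU genes with nitrate and 0 to 2 for ABA alone. The cause was not tested. With the replicate block every count stayed as it was, such as 8, 4 and 6 with ABA. Each group has 1 array of either number, so the block can change an SE but not a difference. Of the uncalled values BGLU36 with nitrate turned to 0.027 without replicate 1, against -0.85 without replicate 2. GSTU25 with kinetin turned to -0.16 without the 6 arrays and to -0.056 without replicate 1, against 0.13 without replicate 2, with a range over single arrays from -0.053 to 0.13. The dimmest probe set in place of the brightest changed no result, since each of the 57 genes had 1. Recovery was not measured by level, so what signal over background limits for the 22 members below every array median was not tested.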
